A study of Mus musculus with 2 samples.

Results

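The atypical chemokine receptors of the mouse are encoded by Ackr1, Ackr2, Ackr3 and Ackr4. All 4 genes were found by symbol in both libraries, as 4 of 31053 gene rows. They were followed through endothelial cells of the small intestine, sorted from its end section, the ileum. The mice were wild-type C57Bl/6 males at an age of 8 weeks. The study holds 2 single-cell RNA libraries of 1 group with no treatment, labelled WT_EC_1 and WT_EC_2 and called library 1 and library 2 below. Cells had been sorted as CD31 positive and EpCAM and CD45 negative, in a podoplanin-negative gate for blood vessels and a podoplanin-positive gate for lymphatic vessels. The labels do not say in which proportion the 2 gates were loaded, so the sort can set the number of cells in each class, and these numbers are not compared.

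Atypical chemokine receptors bind chemokines but do not start the G protein signalling by which ordinary chemokine receptors steer leukocytes. They take up, break down or carry chemokines across cells and so shape gradients in tissue. ACKR1, also called DARC, is known from the venules through which leukocytes leave the blood, and it carries inflammatory chemokines of both the CC and CXC families over the endothelium. ACKR2, also called D6, is a scavenger of inflammatory CC chemokines known from lymphatic vessels. ACKR3, also called CXCR7, removes CXCL12 and also binds CXCL11 and adrenomedullin, and ACKR4 removes the CCR7 ligands CCL19 and CCL21 together with CCL25.

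Ackr1 (ENSMUSG00000037872) lies on the minus strand at chr1:173331886-173333750 of GRCm38. Ackr2 (ENSMUSG00000044534) lies on the plus strand at chr9:121898355-121911074, and Ackr3 (ENSMUSG00000044337) on the plus strand at chr1:90203980-90216751. Ackr4 (ENSMUSG00000079355) lies on the minus strand at chr9:104084157-104126933, inside Acad11 on the opposite strand. All 4 are annotated as protein coding in GENCODE vM21. The first 493 bases of Ackr1, chr1:173333258-173333750, are shared with the end of Cadm3 on the same strand, so reads there cannot be assigned to 1 of the 2 genes by position. The 150 bases before the RefSeq start of the 3 receptors with measurable levels are shown here because their levels followed the vessel classes in 3 different ways. They are given in the direction of the gene on GRCm38.p6, at chr1:173333504-173333653 for Ackr1, chr9:121898205-121898354 for Ackr2 and chr1:90203830-90203979 for Ackr3, and capitals mark a TATA box (TATAAA).
Ackr1: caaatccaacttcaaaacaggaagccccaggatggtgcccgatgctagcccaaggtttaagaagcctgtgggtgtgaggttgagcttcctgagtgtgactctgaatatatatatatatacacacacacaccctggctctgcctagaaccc
Ackr2: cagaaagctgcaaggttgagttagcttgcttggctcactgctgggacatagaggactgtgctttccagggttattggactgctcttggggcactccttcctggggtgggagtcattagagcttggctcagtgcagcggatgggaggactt
Ackr3: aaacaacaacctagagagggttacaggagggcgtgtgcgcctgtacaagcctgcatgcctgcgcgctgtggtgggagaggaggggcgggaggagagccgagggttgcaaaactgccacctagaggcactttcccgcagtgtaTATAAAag
TATAAA was searched on both strands of the 300 bases around each start, and 14.2% of 27025 RefSeq promoters held it. In Ackr3 it began 8 bases before the start and in Ackr4 185 bases before it. AGATAA, which GATA factors bind, was held by 11.4% of promoters and was found in Ackr1 alone of the 4, on the opposite strand 26 bases after the start. AGGTCA, a nuclear receptor half-site held by 16.04% of promoters, was found in Ackr1, 167 bases before the start, and Ackr2 held none of the 3 motifs. These matches describe the letters of the windows only. The Ackr1 window printed above lies inside the GENCODE gene and inside the stretch shared with Cadm3, since RefSeq places the start further in.

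Library 1 held 1026 barcodes with 3806199 unique molecular identifiers (UMIs, counts of captured RNA molecules) and library 2 held 6302 barcodes with 26645476. After removal of cells with under 500 genes or over 15% mitochondrial UMIs, 978 and 6067 cells were left, with medians of 3371 and 3814 UMIs, and 2 barcodes occurred in both libraries. Cells were placed in 5 classes by the UMIs of other genes: lymphatic by Mmrn1, Lyve1 and Prox1 (together at least 5), and blood by Flt1, Cd34, Plvap and Esam (together at least 5). Blood cells were called venous at 3 UMIs or more of Selp and Madcam1 and arterial at 3 or more of Sema3g, Fbln5 and Stmn2. The others were called Plvap capillary where Plvap exceeded the sum of Gpihbp1 and Aqp1, and Gpihbp1/Aqp1 capillary where it did not. This gave 78 and 976 lymphatic cells, 69 and 261 venous cells, 147 and 888 arterial cells, 361 and 2367 Plvap capillary cells, and 232 and 1085 Gpihbp1/Aqp1 capillary cells in libraries 1 and 2. Markers outside the gates followed the names. The lymphatic check genes (Pdpn, Flt4, Ccl21a, Reln and Tbx1) summed to 11304 and 10231 CPM (UMIs of a gene scaled to a fixed total per class) in lymphatic cells, against at most 138 in any blood class. The venous check genes summed to 5948 and 5264 CPM in venous cells, against at most 1752 elsewhere, and the arterial ones to 1619 and 1544 CPM in arterial cells, against at most 937. Library 2 carried more RNA of other cell types: fibroblast markers summed to between 33.2 and 525 CPM in its classes and to between 3.13 and 70.9 CPM in those of library 1.

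Ackr1 was a venous transcript in this tissue. Venous cells held 2009.9 CPM in library 1 and 2021 CPM in library 2, which is 2015 ± 7.89 CPM (SD, n = 2). Lymphatic cells held 3.94 and 12.4 CPM, arterial cells 0 and 12.2, Plvap capillary cells 1.44 and 8.43, and Gpihbp1/Aqp1 capillary cells 37.5 and 10.7. The lowest venous value thus lay far above the highest value of any other class. Over both libraries the venous level was 199-fold that of the 4 other classes together (95% exact counting interval 175 to 228). Of the Ackr1 UMIs in the 5 classes, venous cells gave 642 of 673 in library 1 (95.4%, exact interval 93.5 to 96.8%). In library 2 they gave 3100 of 3316 (93.5%, 92.6 to 94.3%). They were 7.78 and 4.68% of the cells in the 5 classes. These intervals cover counting error only. Cells passing both the venous and the arterial gate, which are outside the 5 classes, held a further 513 and 3136 Ackr1 UMIs. Of the Ackr1 UMIs in all kept cells, those were 42.8 and 47.6%, and the venous class held 53.6 and 47.0%.

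Against the mean of the other 3 blood classes, Ackr1 was higher in venous cells by 7.73 ± 0.37 on the log2 scale (edgeR's quasi-likelihood test, Benjamini-Hochberg adjusted p = 0.000137). For edgeR the ± is, here and below, an approximate SE: the fitted difference divided by the square root of its F value. Of the 3 members that passed the expression filter, Ackr1 and Ackr3 were called higher in venous cells, where 14.3% of 10557 genes tested were called higher and 25.1% in either direction. Venous cells exceeded each other class in Ackr1 on its own, by 7.25 ± 0.57 (Gpihbp1/Aqp1 capillary) to 8.20 ± 0.56 (Plvap capillary), with edgeR adjusted p between 0.000632 and 0.00106. Of all genes, 40.4% were called between lymphatic and venous cells, 21.5% between venous and arterial, 22.2% between venous and Plvap capillary and 27.8% between venous and Gpihbp1/Aqp1 capillary cells. The 4 other classes could not be ordered. Their order differed between the libraries, and none of the 6 differences among them passed (edgeR adjusted p between 0.546 and 0.969), among them lymphatic against arterial, where 46% of all genes were called, and lymphatic against Plvap capillary, with 51%. Lymphatic cells had an Ackr1 log2 difference from the mean of the blood classes of -1.87 ± 0.83 (edgeR adjusted p = 0.135). Arterial cells differed from the mean of the capillary classes by -0.02 ± 0.84 (edgeR adjusted p = 0.998). The fit takes out the mean difference between the 2 libraries, so the p-values rest on how far class differences varied from library to library. With 4 residual and a median of 44.1 prior degrees of freedom, that error is for a typical gene drawn largely from all genes together. Separate mice as the source of the 2 libraries are not stated in the labels.

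**Figure D1:**
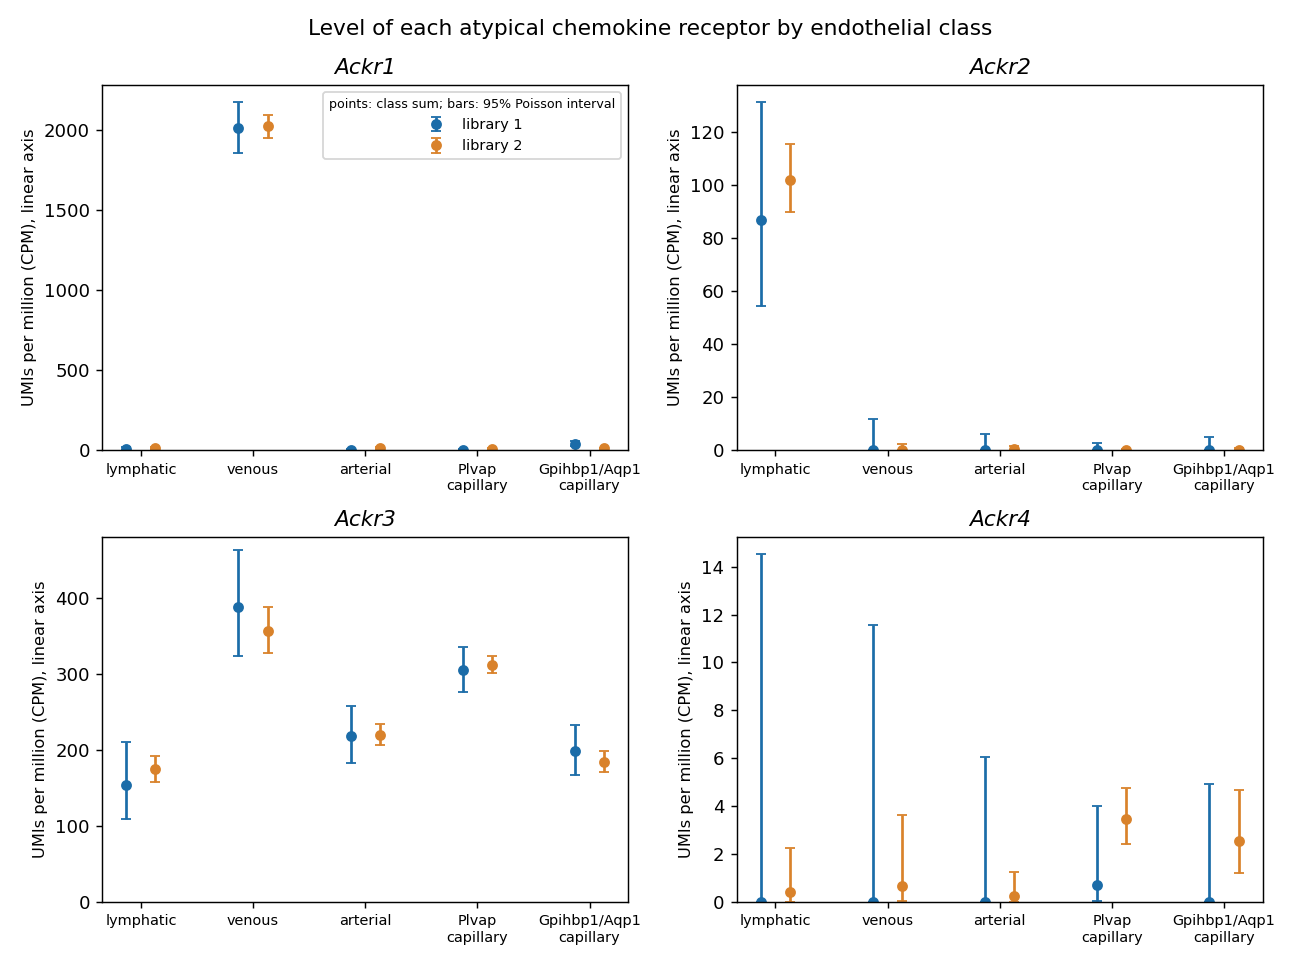
Level of each receptor (CPM, linear axis from 0, with its own range in each panel) in the 5 endothelial classes; points are class sums of library 1 and library 2 and bars are 95% exact Poisson intervals of the counts. Ackr1 stood at 2009.9 and 2021 CPM in venous cells and Ackr2 at 86.6 and 102 CPM in lymphatic cells, each near 0 elsewhere, while Ackr3 was present in every class and Ackr4 stayed at or below 3.45 CPM.

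Most venous cells carried Ackr1. In library 1, 59 of 69 venous cells had a UMI (85.5%, exact interval 75.0 to 92.8%), with a median of 6 UMIs and a maximum of 46. In library 2, 39 of 261 venous cells had none and 153 had at least 5, with a median of 7 and a maximum of 159. Thinning, here and below, left out cells with fewer UMIs than the set depth. When each remaining cell was thinned to 1500 UMIs the share with Ackr1 was 73.5 ± 3.14% (SD, n = 2), against 85.3% of all venous cells at full depth. The shares in the other classes of library 2 were alike at 2.97% (lymphatic), 2.59% (arterial), 2.37% (Plvap capillary) and 2.49% (Gpihbp1/Aqp1 capillary), at median depths of 2145 to 4549 UMIs against 5397 in venous cells. At 1500 UMIs per cell they were 1.68% in lymphatic and between 0.779 and 1.02% in the 3 other classes of library 2, with overlapping exact intervals, and in library 1 the full-depth shares lay between 0 and 1.29%. How far free RNA adds to these low shares was not tested.

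The Ackr1 UMIs outside the venous class were unevenly spread. In library 1, 26 of the 31 sat in 1 Gpihbp1/Aqp1 capillary cell, which also had 2 gate UMIs of Selp and Madcam1 and carried Vwf. Without that cell, the value of 37.5 CPM in this class would rest on 2 UMIs. In library 2, 9 of 5316 cells had at least 5 Ackr1 UMIs each and together 69 of 216, and 8 of these 9 had a Selp or Madcam1 UMI and all 9 had Vwf. Below the threshold, too, blood cells with more gate UMIs had more Ackr1: in library 2 the level was 4.74 CPM in cells with 0 Selp and Madcam1 UMIs, 65.6 CPM with 1, 330.2 CPM with 2 and 2174 CPM with at least 6. Cells just inside the threshold, with 3 gate UMIs, had 384 CPM (8 cells), and those just outside it, with 2, had the 330.2 CPM given above (24 cells). In library 1 only 3 cells had 2 gate UMIs and none had 3. Requiring 5 gate UMIs for venous and arterial cells and 8 for lymphatic and blood cells, or lowering the gates to 2 and 3, left the venous difference called.

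**Figure D2:**
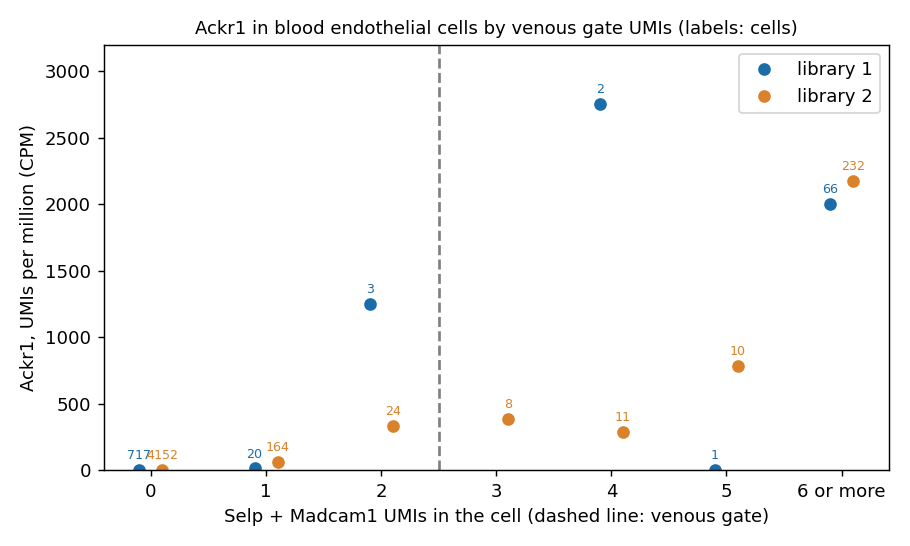
Ackr1 level (CPM, linear axis) in cells of the 4 blood classes by their number of Selp and Madcam1 UMIs; each point is the sum over the cells of 1 library, the small number beside it counts those cells, and the dashed line is the venous threshold. In library 2 the level was 4.74 CPM at 0 gate UMIs and 2174 CPM at 6 or more, with 289 to 785 CPM in the thinly filled bins of 3 to 5.

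**Figure D3:**
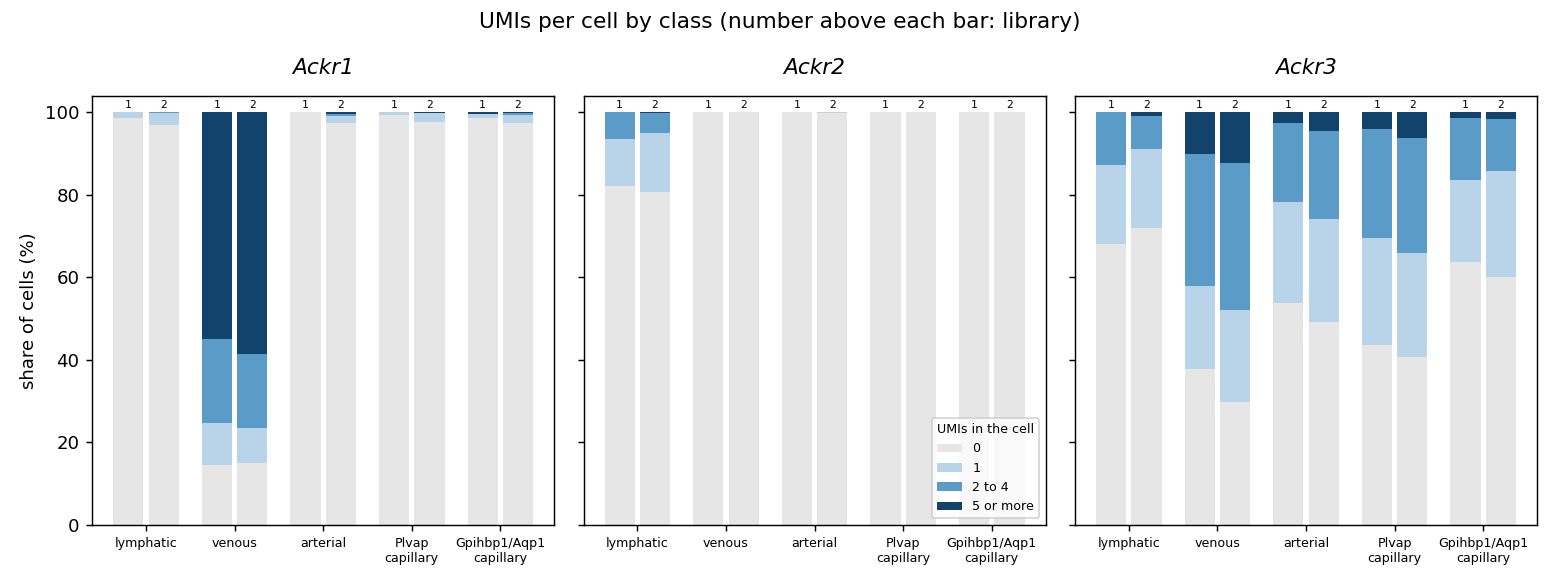
Share of cells (%) with 0, 1, 2 to 4, and 5 or more UMIs of Ackr1, Ackr2 and Ackr3 by class; the small number above each bar is the library. Cells with 5 or more Ackr1 UMIs made up 38 of 69 and 153 of 261 venous cells, whereas Ackr3 was spread over all classes at mostly 1 to 4 UMIs.

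Venous cells were split by their own genes into those with more Sele and Icam1 (adhesion molecules that activated venules display) and those with more Vwf and Adgrg6. Ackr1 was at 2151 and 2257 CPM in the Sele/Icam1 cells, against 1700 and 1566 CPM in the Vwf/Adgrg6 cells. These values did not overlap, which is a description and not a test, and how many of all genes separate in this way was not counted. The difference of 0.66 ± 0.33 log2 did not pass edgeR's test (adjusted p = 0.528), where 3.46% of 9974 genes passed. Ackr3 was at 378 and 373 CPM in the Sele/Icam1 cells and at 410 and 325 CPM in the Vwf/Adgrg6 cells, which overlapped (0.32 ± 0.17 log2, edgeR adjusted p = 0.464).

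Ackr2 was a lymphatic transcript. Lymphatic cells held 86.6 CPM in library 1 and 102 CPM in library 2 (94.3 ± 10.8, SD, n = 2), from 22 and 255 UMIs. Venous and Gpihbp1/Aqp1 capillary cells had 0 UMIs in both libraries. Arterial cells had 0 and 2 UMIs, and Plvap capillary cells had 0 and 1. Lymphatic cells therefore gave 22 of 22 and 255 of 258 of the Ackr2 UMIs in the 5 classes. Over both libraries the lymphatic level was at least 62.1-fold higher than the venous and at least 157-fold higher than the Gpihbp1/Aqp1 capillary one, counted against 3 UMIs over the class. Against the 4 blood classes together the ratio was 787 (exact counting interval 267 to 3839, with 3 UMIs in blood cells).

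Lymphatic against blood, Ackr2 passed edgeR's test with a fitted log2 difference of 9.79 ± 0.37 (adjusted p = 1.71e-27). With blood classes at 0 this fitted size, and the approximate SE derived from it, depend on the prior count. The precision depends on the tool: DESeq2 gave 8.94 ± 3.67 log2 on the same sums (DESeq2 adjusted p = 0.0409). In that comparison 25.1% of 10557 genes were called higher and 26% lower, 51.1% in all, so a call by itself is common there. Of the 3 tested members Ackr2 was called higher, Ackr3 lower and Ackr1 not called. Lymphatic cells were shallower than the others in library 2 (median 2145 UMIs) and had the highest mitochondrial share there (5.32%). With cells thinned to 1500 UMIs the Ackr2 call remained. This left out the shallower cells, 13 of 78 lymphatic cells in library 1 and 260 of 976 in library 2.

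Few lymphatic cells showed the transcript at this depth. In library 1, 14 of 78 lymphatic cells had an Ackr2 UMI (17.9%, exact interval 10.2 to 28.3%), and the most in 1 cell was 3. In library 2, 139 cells had 1 UMI, 47 had 2 to 4 and 2 had 5 or more, of 976, with a maximum of 6. At 1500 UMIs per cell the share was 13.2 ± 1.27% (SD, n = 2). Among venous cells 0 of 69 and 0 of 261 had a UMI, at greater depth per cell. The share of lymphatic cells counts those with a captured molecule, not those that express the gene.

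The lymphatic cells were split by Gbp2 and Gbp4, interferon-induced guanylate binding proteins, at 3 UMIs. With 16 high cells in library 1 this split was too small to be tested. Ackr2 was at 63.8 and 110 CPM in high cells and at 96.8 and 98.0 CPM in low cells, and Ackr3 at 140 and 182 CPM in high cells and at 160 and 171 CPM in low cells, so that both overlapped. With the threshold at 2 UMIs the fitted differences were 0.25 ± 0.28 log2 for Ackr2 and 0.10 ± 0.19 for Ackr3 (edgeR adjusted p = 1 for both).

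**Figure D4:**
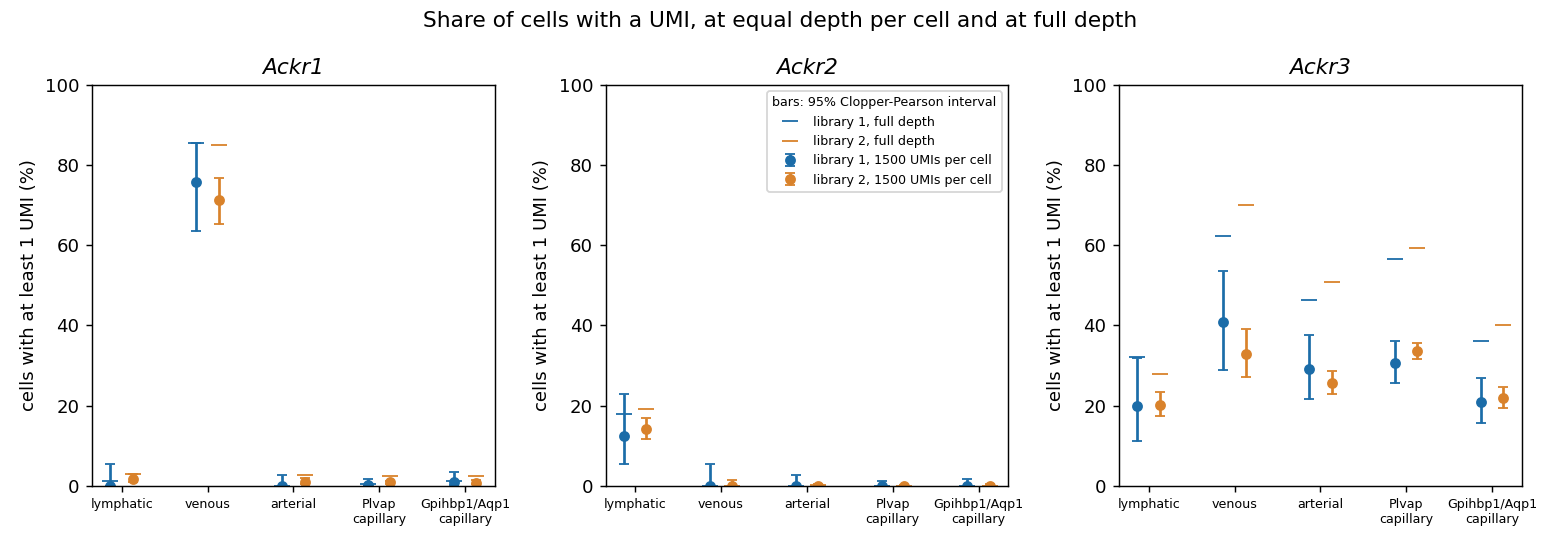
Share of cells (%) with at least 1 UMI of Ackr1, Ackr2 and Ackr3 by class and library. Circles are shares with each cell thinned to 1500 UMIs and shallower cells left out, and bars are their 95% Clopper-Pearson intervals. Dashes are shares of all cells at full depth. Ackr1 stands out in venous cells and Ackr2 in lymphatic cells at both depths, whereas the Ackr3 shares of the 5 classes lie at or below 40.9% after thinning.

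Ackr3 was present in every class, in the same order in both libraries. Venous cells held 388 and 357 CPM in libraries 1 and 2 (372 ± 22.3), and Plvap capillary cells 305 and 312 CPM (309 ± 5.19). Arterial cells held 218 and 220.0 CPM (219 ± 1.60), Gpihbp1/Aqp1 capillary cells 198 and 184 CPM (191 ± 9.61), and lymphatic cells 154 and 174 CPM (164 ± 14.7; SD, n = 2 for each). No 2 classes overlapped in these values. With 2 values per class such a separation is a description and not a test, here and below, and how many of all genes separate in this way was not counted. The highest class was 2.53-fold the lowest in library 1 and 2.05-fold in library 2, a far smaller span than that of Ackr1.

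Against the other blood classes Ackr3 was higher in venous cells by 0.82 ± 0.10 log2 (edgeR adjusted p = 8.69e-09). In lymphatic cells it was lower than in the blood classes by a log2 difference of -0.72 ± 0.11 (edgeR adjusted p = 6.10e-07). Plvap capillary cells exceeded Gpihbp1/Aqp1 capillary cells by 0.84 ± 0.12 log2 (edgeR adjusted p = 9.82e-08), and Ackr3 was the only one of the 3 tested members called there, where 24.8% of genes were called and 13.4% called higher. None of the 3 was called between arterial cells and the mean of the capillary classes, where 10.3% of genes were called; for Ackr3 the difference was -0.12 ± 0.11 log2 (edgeR adjusted p = 0.694), the arterial level lying between the 2 capillary ones.

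Between neighbours in the order, venous cells exceeded Plvap capillary cells by 0.36 ± 0.12 log2 (edgeR adjusted p = 0.0223; 22.2% of genes called), a call lost under 6 of 12 alternative settings (adjusted p between 0.0809 and 0.183 in those 6). Arterial cells were below Plvap capillary cells by a log2 difference of -0.53 ± 0.12 (edgeR adjusted p = 0.000534; 12.9% of genes called). The 2 lower steps did not pass the adjusted threshold, although their values did not overlap: arterial minus Gpihbp1/Aqp1 capillary was 0.30 ± 0.13 (edgeR adjusted p = 0.102; 16.4% of genes called) and lymphatic minus Gpihbp1/Aqp1 capillary was -0.13 ± 0.14 (edgeR adjusted p = 0.467; 46.2% of genes called). The call between arterial and Plvap capillary cells was lost without the library term (adjusted p = 0.0850).

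Haemoglobin transcripts summed to 37.6 CPM in Plvap and 2516 CPM in Gpihbp1/Aqp1 capillary cells of library 2, and epithelial markers to 519 CPM in Plvap and 8.13 CPM in Gpihbp1/Aqp1 capillary cells. In library 1, where haemoglobin summed to 3.60 CPM in Plvap and 2.68 CPM in Gpihbp1/Aqp1 capillary cells, Ackr3 was at the 305 and 198 CPM given above. Haemoglobin and epithelial RNA were not filtered, and their part in the Ackr3 difference between the capillary classes was not tested. A separate setting, chosen after seeing the data, left out every cell with 5 or more UMIs of fibroblast or mural genes. It ended none of the Ackr3 calls of the 4 main comparisons, but it does not address haemoglobin or epithelial RNA.

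Per cell, Ackr3 was less concentrated than Ackr1. At full depth 66.2% of venous, 58.0% of Plvap capillary, 48.5% of arterial, 38.1% of Gpihbp1/Aqp1 capillary and 30.0% of lymphatic cells had a UMI (means of the 2 libraries). At 1500 UMIs per cell the shares were 36.9 ± 5.63% in venous, 32.1 ± 1.97% in Plvap capillary, 27.5 ± 2.47% in arterial, 21.4 ± 0.692% in Gpihbp1/Aqp1 capillary and 20.1 ± 0.178% in lymphatic cells. The thinned shares of venous and Plvap capillary cells were 40.9 and 30.7% in library 1 but 32.9 and 33.5% in library 2, so this pair kept no common order.

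Within arterial cells Ackr3 varied with Fn1 and S100a4, the genes of fibronectin and of a calcium-binding protein. Cells with 3 or more UMIs of these held 97.8 and 158 CPM of Ackr3, against 254 and 245 CPM in the other arterial cells, without overlap. The log2 difference was -0.72 ± 0.17 (edgeR adjusted p = 0.00128), where 1.98% of 9974 genes were called lower and 5.28% in either direction. It was -1.39 without library 2, whose 226 high cells then leave the 27 of library 1, and -0.60 without library 1. Without the library term it was -0.79 (adjusted p = 0.0780). Fibroblasts also express both genes; the arterial class held 18.0 CPM of fibroblast markers in library 1 and 458 CPM in library 2, and their part in the difference was not tested.

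Co-detection was described at 1500 UMIs per cell. Ackr3 was found in 44.0% of venous cells with and 31.3% of those without Ackr1 in library 1 (22 cells with both), and in 35.3 and 27.0% in library 2 (65 cells with both). Among lymphatic cells it was found in 2 of 8 cells with and 19.3% of those without Ackr2 in library 1, and in 17.8 and 20.7% in library 2. The direction for Ackr2 was thus not shared by the libraries, and cells of a library are not replicates, so no test was made.

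Ackr4 was hardly detected in endothelial cells. Library 1 held 1 UMI in all 887 cells of the 5 classes, in a Plvap capillary cell (0.719 CPM). Library 2 held 49 UMIs in 13 of 5577 cells: 3.45 CPM in Plvap capillary, 2.54 CPM in Gpihbp1/Aqp1 capillary, and at most 0.652 CPM in the other classes. In library 2, 4 cells with at least 3 Ackr4 UMIs each held 40 of the 49, and these 4 cells had between 231 and 507 UMIs of the fibroblast genes Dcn, Col1a1 and Col3a1. Of 39 cells with at least 5 UMIs of those genes 7 had Ackr4 (17.9%), against 0.108% of all other cells. Ackr4 did not pass the expression filter and was not tested; whether counting used the strand is not known here, so reads from Acad11 cannot be told apart.

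The genes listed as ligands of ACKR1, ACKR2 or both were few. ACKR2 takes up CC chemokines, so the CXC chemokines among them are listed for ACKR1. Of 13 inflammatory chemokine genes, 4 passed the filter: Cxcl1 and Cxcl2, which attract neutrophils, Ccl2, which attracts monocytes, and Ccl11, which attracts eosinophils. Lymphatic against blood, 2 rose and 2 fell (median -0.52 log2, beside 0.01 over all genes, of which 51.1% were called). Venous against other blood, 2 rose and 2 fell (median -0.76, beside -0.02 over all genes, of which 25.1% were called). Cxcl2 was among those that rose in both comparisons. It was low, at 9.78 ± 13.8 CPM in venous and 6.40 ± 9.04 CPM in lymphatic cells, with its UMIs in each of these classes from a single library. Ccl2 rose in lymphatic cells, with 27.5 ± 16.6 CPM there and 0.326 to 5.99 CPM in the blood classes (3.60 ± 0.35 log2, edgeR adjusted p = 9.65e-13). Cxcl1 rose in venous cells, with 60.3 ± 18.9 CPM against 47.2 ± 19.0 in arterial, 15.3 ± 2.25 in Plvap capillary and 59.5 ± 2.92 in Gpihbp1/Aqp1 capillary cells (1.18 ± 0.22 log2, edgeR adjusted p = 8.36e-05), so that it did not stand above every blood class.

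Cxcl12, the main ligand of ACKR3, was lowest in lymphatic and venous cells. It was at 66.9 and 94.7 CPM in lymphatic cells and at 34.4 and 377 CPM in venous cells. Arterial cells held 2540.4 and 2224 CPM, Plvap capillary cells 3359 and 3142 CPM, and Gpihbp1/Aqp1 capillary cells 4422 and 3633 CPM. Cxcl12 was lower in lymphatic than in blood cells (-4.36 ± 0.72 log2, edgeR adjusted p = 0.00710) and lower in venous than in other blood cells (-3.41 ± 0.61 log2, edgeR adjusted p = 0.0197). The venous class thus had the highest Ackr3 level and, among blood classes, the lowest Cxcl12 level in both libraries. Adm, the gene of adrenomedullin, rose in lymphatic cells (50.5 ± 15.7 CPM, close to the 55.5 ± 14.2 of Gpihbp1/Aqp1 capillary cells and above the 3 other blood classes; 1.97 ± 0.22 log2, edgeR adjusted p = 3.39e-10) and fell in venous cells (3.26 ± 4.61 CPM; -1.64 ± 0.45 log2, edgeR adjusted p = 0.00429). Cxcl11 was not analysed here.

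Of the ACKR4 ligands, Ccl21a was at 6312 and 5881 CPM in lymphatic cells, against 9.26 ± 0.187 CPM in venous cells and at most 7.76 CPM as the mean of any other blood class. It was also 1 of the lymphatic check genes, its near-identical copies share reads, and 2 rows of that symbol were summed, so its value is uncertain. Ackr4 itself was at 0 and 0.400 CPM in lymphatic cells. Ccl25 fell in lymphatic cells (5.37 ± 2.02 CPM; -0.99 ± 0.40 log2, edgeR adjusted p = 0.0334), and Ccl19 was at most 0.200 CPM as the mean of any class and was not tested.

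**Figure D5:**
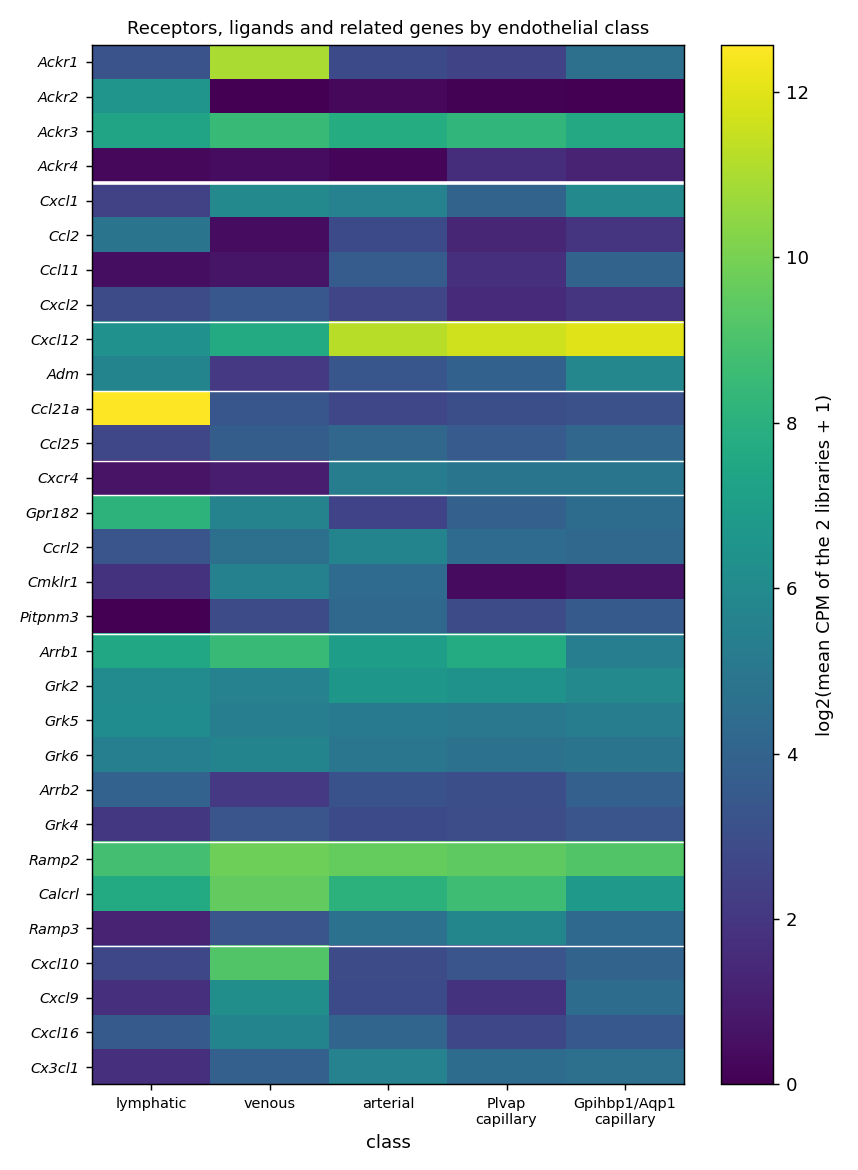
Mean level of the 4 receptors (above the thick line) and of ligands, other receptors, arrestins and chemokines by class, as log2(mean CPM of the 2 libraries + 1); thin lines separate the gene lists, and genes at or above 5 CPM in at least 1 class are shown. Colours are to be read along a row, since UMI counts do not compare genes; the Ackr1 row is brightest in venous cells (2015 CPM), the Cxcl12 row is darkest in lymphatic and venous cells, and Ccl21a is bright in lymphatic cells alone.

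Few molecules of the signalling chemokine receptors were captured: of 18 genes, Cxcr4 alone passed the filter. This signalling receptor for CXCL12 was at 0 and 1.20 CPM in lymphatic cells and 0 and 1.96 CPM in venous cells, against 36.0 and 38.6 CPM in arterial cells, 34.5 and 22.8 CPM in Plvap capillary cells and 26.8 and 31.3 CPM in Gpihbp1/Aqp1 capillary cells. It fell in lymphatic against blood (-3.78 ± 0.68 log2, edgeR adjusted p = 5.90e-06) and in venous against other blood (-4.04 ± 0.52 log2, edgeR adjusted p = 1.11e-08). The venous class with the highest Ackr3 was therefore low in Cxcr4 as well as in Cxcl12.

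Of 4 receptors related to the family, all tested, 1 rose and 2 fell in lymphatic cells (median -0.53 log2, beside 0.01 over all genes, of which 25.1% were called higher and 26% lower). In venous cells 2 rose (median 1.21, beside -0.02 over all genes, of which 14.3% were called higher). Gpr182, a chemokine-binding receptor of lymphatic and sinusoidal endothelium, was at 279 ± 0.378 CPM in lymphatic and 47.9 ± 1.37 CPM in venous cells, against 4.86 to 20.7 CPM in the other classes. It rose in lymphatic against blood by 3.99 ± 0.13 log2 (edgeR adjusted p = 2.63e-31) and in venous against other blood by 2.26 ± 0.22 (edgeR adjusted p = 7.04e-12). Cmklr1, the chemerin receptor, rose in venous cells (45.2 ± 11.4 CPM, against 20.4 ± 10.6 in arterial and at most 0.635 as the mean of either capillary class; 4.40 ± 0.38 log2, edgeR adjusted p = 5.90e-14). Ccrl2, which binds chemerin, and Pitpnm3 fell in lymphatic cells, Pitpnm3 with 0 UMIs there.

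Among arrestins and receptor kinases, through which atypical receptors are taken into the cell, 6 of 7 genes passed the filter. In lymphatic cells 4 rose and none fell (median 0.38 log2, beside 0.01 over all genes, of which 25.1% were called higher and 26% lower). In venous cells 2 rose and 1 fell (median 0.65, beside -0.02 over all genes, of which 14.3% were called higher and 25.1% in either direction). Arrb1, beta-arrestin 1, was highest in venous cells at 349.5 ± 81.3 CPM, against 131 ± 30.1 in arterial, 213 ± 31.8 in Plvap capillary and 41.1 ± 3.28 in Gpihbp1/Aqp1 capillary cells (1.85 ± 0.12 log2, edgeR adjusted p = 1.49e-18). Grk5 rose in lymphatic cells (68.7 ± 13.6 CPM; 1.02 ± 0.16 log2, edgeR adjusted p = 4.42e-07).

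The adrenomedullin receptor is built from CALCRL with RAMP2 or RAMP3, and 3 of its 4 listed genes were tested. All 3 fell in lymphatic against blood (median -0.76 log2, beside 0.01 over all genes, of which 26% were called lower), and in venous against other blood Calcrl and Ramp2 rose while Ramp3 fell (25.1% of all genes called). Calcrl was at 761 ± 71.9 CPM in venous cells, against 106 to 402 CPM as means of the other blood classes (1.95 ± 0.10 log2, edgeR adjusted p = 9.36e-23). All 3 were also called higher in Plvap than in Gpihbp1/Aqp1 capillary cells, as were Ackr3 and 13.4% of all genes.

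Of 8 other chemokines of endothelium 4 passed the filter, and 3 of these rose in venous against other blood (median 3.04 log2, beside -0.02 over all genes, of which 14.3% were called higher). Cxcl10, an interferon-induced ligand of CXCR3, was at 639 and 514 CPM in venous cells, against at most 20.1 CPM in any other blood class of either library (6.11 ± 0.14 log2, edgeR adjusted p = 7.41e-33). Cxcl9, with the same receptor, was at 72.7 ± 34.5 CPM (3.14 ± 0.27 log2, edgeR adjusted p = 4.40e-13) and Cxcl16, a membrane-bound chemokine, at 50.3 ± 35.8 CPM in venous cells (2.93 ± 0.24 log2, edgeR adjusted p = 4.60e-14).

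The genes most like each receptor were ranked by Pearson correlation of log2(CPM + 1) over the 10 class sums, among 7679 genes. These points share libraries and depth, so the values are descriptions. For Ackr1 they were Cadm3 (r = 0.976), Cfb (0.973), Adgrg6 (0.966), Bend4 (0.964) and Klk14 (0.958). Cadm3 is the gene that overlaps Ackr1 on the same strand, and its 236 CPM in venous cells against 0.999 to 9.55 CPM elsewhere cannot be separated from Ackr1 reads by these counts. For Ackr2 they were Sema3a, Sh3gl3, Rimbp2, Mrc1 and Fgf12 (r between 0.997 and 0.999), all with 0 CPM in venous cells. For Ackr3 they were Plxnb2, Mctp1, Rps15a, Bcl3 and Mob3c (r between 0.949 and 0.952), all highest in venous and next in Plvap capillary cells.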

How the data were processed

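The deposited values are raw UMI counts in a matrix of 31053 genes by cell barcodes for each library, made from 3' single-cell libraries (v3 chemistry) per the labels. The authors used bcl2fastq 2.2 and Cell Ranger 3.1.0 with the mouse build mm10, per the submitters' processing notes; the gene annotation and the strand setting are not given in the sources used here. Genes were annotated by ID from GENCODE vM21 (GRCm38), and promoters are RefSeq's for GRCm38.p6.

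The 4 members, the classes and the gene lists were chosen with earlier results of these data known. The members took no part in the gates. Cells passing both the lymphatic and the blood gate, or both the venous and the arterial gate, were left out. No doublet caller was run, and the sources used here do not say whether doublets had been removed. An alternative run left out the 5% of cells with the most UMIs. It takes out deep cells of any kind and cannot identify doublets, so these were not tested. Rows that share a symbol were summed.

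UMIs were summed per library and class, 10 sums in 1 fit, and tested with edgeR 4.0.16 (R 4.3.3): quasi-likelihood test, robust, TMM scaling, expression filter with a minimum count of 10, library as a block, false discovery rate 0.05 by Benjamini-Hochberg over all genes tested. The fit had 4 residual degrees of freedom and a median of 44.1 prior ones. The error term of a typical gene therefore comes largely from all genes together, but that of Ackr1 does not. Genes used in gates were fitted but neither counted nor named as results. Subclasses with under 20 cells in a library were left out of a second fit of 14 sums. The script was tested on simulated counts. Log2 differences are given ± SE, and CPM and shares as mean ± SD over the 2 libraries. The SE of an edgeR difference is approximate, the fitted difference divided by the square root of its F value, and that of DESeq2 is its own. Named genes were the members, up to 6 genes per list by the highest class mean, and the 5 genes most like each member with at least 20 CPM in the highest class of both libraries. Intervals are exact Poisson or Clopper-Pearson intervals at 95%, and a count of 0 allows up to 3 counts. Alternatives were DESeq2 1.42.0 with its size factors, no scaling, no filter, other gates and cell filters, thinning, no block, and each library left out; 2 more, without cells holding fibroblast or mural genes and with cells passing both the venous and the arterial gate counted as venous, were chosen after seeing the data.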

Additional observations from a re-analysis of the deposited data

Results flagged for a closer look

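Cells outside the 5 classes, which entered, if at all, only alternative settings of the comparisons, held receptor transcripts above the level that a count of 3 gives, and this is what singled them out; their values carry counting error only and were not tested. Cells that passed both the venous and the arterial gate, 28 in library 1 and 166 in library 2, held Ackr1 at 2403 and 2335 CPM and Ackr3 at 431 and 437 CPM. They were deep cells, with medians of 7900.5 and 7753 UMIs, and made up 28.9 and 38.9% of the cells passing the venous gate. Arterial genes outside the gates were low in them: Gja4 was at 14.1 and 17.9 CPM, against 444 and 458 CPM in arterial cells, while the venous gene Nr2f2 was at 515 and 474 CPM, against 488 and 468 CPM in venous cells. Their Fbln5, an arterial gate gene, was at 515 and 485 CPM, against 144 and 119 CPM in venous cells.

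Cells that passed both the lymphatic and the blood gate held Ackr1 at 197 CPM in library 1 (3 cells), and in library 2 (96 cells) Ackr1 at 166 CPM, Ackr2 at 45.6 CPM, Ackr3 at 216 CPM and Ackr4 at 8.82 CPM. Cells in no gate held Ackr1 at 73.6 CPM and Ackr3 at 119.6 CPM in library 1, and Ackr1 at 26.8 CPM and Ackr3 at 24.8 CPM in library 2. In library 2, Ackr3 was at 68.3 CPM in the 13 cells of the fibroblast gate, at 222 CPM in the 13 cells of the mural gate and at 41.8 CPM in the 23 cells passing both.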

How the results depend on the processing

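The tally here covers member differences of the main comparisons, of chosen pairs of classes for a chosen member each, and of the venous and arterial splits. Differences of Ackr2 among blood classes and of Ackr1 in the arterial split, with few UMIs, were left out. A difference uncalled under both settings counts as kept. Under the alternatives with a test, differences kept their direction and their side of the threshold in 171 cases. They lost their call in 9, gained one in 2 and turned their sign in 7, all 7 of them uncalled differences of Ackr1. In arterial against capillary the difference of -0.02 became 1.17 with cells passing both gates placed by the higher sum, 0.73 with gates at 3 and 2 UMIs, 0.52 with gates at 8 and 5, 0.070 with stricter cell filters, 0.32 with thinned cells and 0.077 without cells holding fibroblast or mural genes. Between the capillary classes the difference of -0.95 became 0.019 with thinned cells. Ackr1 in lymphatic against blood became called with gates at 3 and 2 UMIs (-1.49) and with thinned cells (-1.58). Ackr3 in venous against Plvap capillary cells was no longer called with DESeq2 (0.37), no scaling (0.25), no filter (0.32), gates at 3 and 2 UMIs (0.26), thinned cells (0.37) or no replicate block (0.38). With no replicate block Ackr3 also lost its call in arterial against Plvap capillary cells (-0.53) and in Fn1/S100a4 high against low arterial cells (-0.79), and DESeq2 did not call Ackr2 in lymphatic against arterial cells (7.90, adjusted p = 0.211). The cause of these changes was not tested. Genes called numbered 1492 with thinned cells, against 2654, in venous against other blood. They numbered 502 with DESeq2, 680 with thinned cells and 525 with no replicate block, against 1090, in arterial against capillary, and 1333 with DESeq2 and 1387 with no replicate block, against 2619, between the capillary classes. In the venous split they were 224 with no scaling and 114 with no replicate block, against 345, and in the arterial split 181 with no replicate block, against 527.

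No scaling moved the median of all genes by -0.18 in venous against other blood and by -0.13 between the capillary classes. Calls then split into 1127 higher and 1878 lower, against 1509 and 1145, and into 1035 and 1808, against 1412 and 1207. The venous split gave 158 higher and 66 lower, against 315 and 30, with the median moved by -0.18; the arterial split with no replicate block gave 136 and 45, against 330 and 197. Shares with a UMI moved with the thinning depth, and so did the cells counted, since shallower cells were left out. Of 976 lymphatic cells in library 2, 65 were left out at 1000 UMIs and 590 at 2500. At 1000 and 2500 UMIs per cell, 64.6 and 83.3% of venous cells had Ackr1 and 10.1 and 17.8% of lymphatic cells had Ackr2. Ackr3 was found in 15.1 and 30.3% of lymphatic, 17.8 and 34.1% of arterial, 23.7 and 46.6% of Plvap capillary and 15.8 and 31.2% of Gpihbp1/Aqp1 capillary cells, and in 58.1% of venous cells at 2500.

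With 1 library left out the differences have no test. Their ranges for Ackr1 were -1.74 to -1.70 in lymphatic against blood, 7.79 to 9.96 in venous against other blood, -5.36 to 0.39 in arterial against capillary, -4.45 to -0.20 between the capillary classes and 0.55 to 0.71 in the venous split. For Ackr2 they were 8.75 to 10.21 in lymphatic against blood and 7.68 to 8.75 in lymphatic against arterial cells. For Ackr3 they were -0.93 to -0.67 in lymphatic against blood, -0.40 to -0.060 in lymphatic against Gpihbp1/Aqp1 capillary cells, 0.092 to 0.38 in the venous split and -1.39 to -0.60 in the arterial split. With 2 libraries of 1 group, 69 venous cells in the smaller, and 0 to 3 UMIs for Ackr2 and Ackr4 in several classes, differences among classes near 0 are not detectable at this depth. The replicate block of the main fit is the library, which pairs the classes that came from it.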
